A study of Camponotus floridanus with 48 samples.

Results

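Of 48 larvae of Camponotus floridanus, a carpenter ant, 15 stood at the high end of the main axis along which their gene expression varied, and they are described here against the other 33. The 15 are larvae No. 3, 4, 6, 9, 15, 17, 29, 31, 32, 33, 36, 38, 49, 53 and 68, by the ant numbers in the labels. They are those with a score above 20 on the first principal component of log2 CPM, the read count of a gene scaled by library size, and this component held 44.0% of the variance between libraries. The members were thus chosen by measured values, the expression of all genes, so the 15 and the 33 are not groups that the study set up, and every difference in gene expression between them is given as a description with no test. All 48 animals were females at the end of larval life from colony 30, each with its own whole-body polyA RNA library, and the labels give no treatment or genotype. The 15 were 4648.07 to 7462.34 µm long and the 33 were 4783.45 to 7598.06 µm long. Length is the only property for which the labels differ between animals other than the ant number, and neither age within the stage nor feeding status is recorded. Each set can therefore differ in properties that the labels do not hold.

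In ants, as in other insects with complete metamorphosis, the last larval stage takes in a period of feeding and growth and then a turn towards the pupa. Ecdysteroids and juvenile hormone steer this change, and the fat body, gut, silk glands, epidermis and muscle change what they make along it. RNA from a whole body adds up these tissues, so that fewer cells of a type and less RNA per cell cannot be told apart in any value below. The reference used for names gives a locus number for most genes and no product, so the genes are named by locus and are given no role. Titin, the name of the giant elastic protein of the muscle sarcomere, was the one muscle name that could be matched to a symbol. The entry with this symbol holds 1 transcript of 4710 bases, and which protein it encodes was not examined. This entry was measured in all 48 larvae.

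The 15 did not form a compact cluster. Larva No. 6 had the lowest of their scores, at 27.9, and larva No. 32 the highest, at 120.6, with a median of 68.75, while the 33 had scores from -62.9 to 5.843. Just inside the threshold lay No. 6 at 27.9, No. 15 at 33.83 and No. 68 at 34.47, and just outside it lay No. 42 at 5.843, No. 64 at 2.85 and No. 44 at 2.748. The step of 22.1 across the threshold was no wider than the step of 22.1 between No. 3 and No. 33, both among the 15. A further step of 19.9 lay between No. 17 and No. 9, also among the 15. Within the 33 the widest step was 9.33, between No. 44 and No. 19. The scores alone do not decide whether the 15 are the drawn-out upper end of a range or a set apart. The 15 are therefore called by their high scores here, not by the name of a discrete state.

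**Figure D1:**
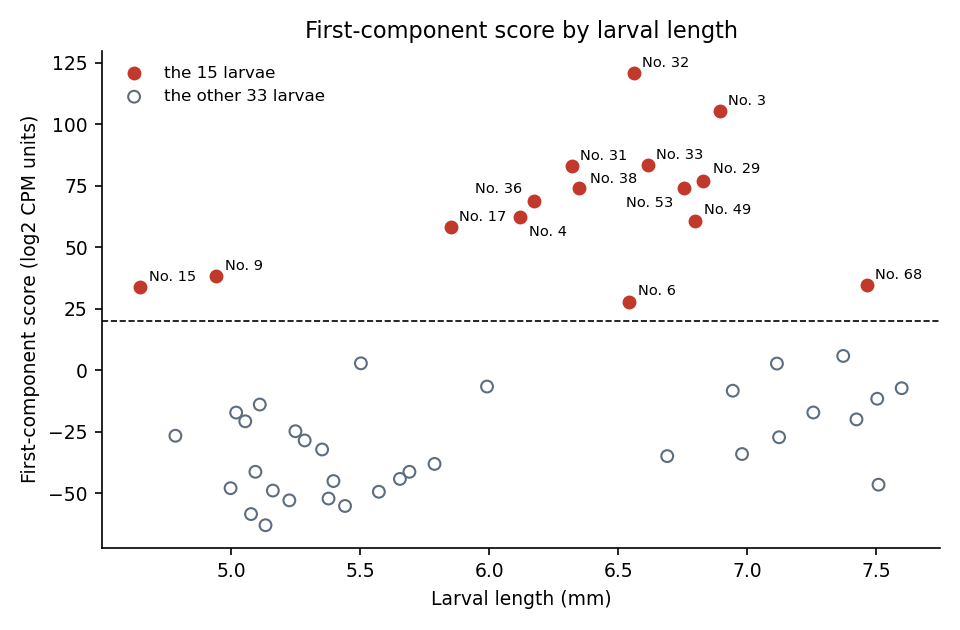
First-component score of each larva (vertical axis, log2 CPM units) against larval length (horizontal axis, mm). Filled red points are the 15 larvae, with scores of 27.9 to 120.6, open grey points are the other 33, with scores up to 5.843, and the dashed line is the threshold of 20. The red points are spread over 4648.07 to 7462.34 µm and fill the stretch near 6.0 to 6.7 mm where no grey point lies.

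The first question was whether the 15 were simply larvae of another size. Their mean length was 6323 ± 731 µm (SD, n = 15), against 5953 ± 959 µm in the 33 (SD, n = 33). The difference of 370.2 µm did not pass a two-sided permutation test with 100000 resamples (p = 0.189, adjusted p = 0.491 over 3 comparisons). The spread of length, as the mean distance from the median of all 48, was 712 µm in the 15 and 843 µm in the 33, and this difference of -131.4 µm did not pass either (permutation p = 0.327, adjusted p = 0.491). The medians lay farther apart, at 6542 µm in the 15 and 5502 µm in the 33 (difference 1040 µm, permutation p = 0.0726). The sets were unevenly laid along the lengths. Of the 15, 7 fell between 5991.09 and 6689.42 µm, a stretch of 698.3 µm that held none of the 33, so that for these 7 the comparison at equal length rests on interpolation along a line. Larva No. 38, at 6348.66 µm, was 340.8 µm from the nearest of the 33, which was the widest such distance.

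The libraries differed in more than these genes. The 15 held 29813793 to 52469217 reads assigned to genes, against 6608775 to 63171625 in the 33. Mean log2 depth did not pass the test of a difference (-0.07, permutation p = 0.749, adjusted p = 0.749 over 3 comparisons). Larvae No. 42 and No. 43 of the 33 were shallow, and without them the 15 were lower in depth by 0.22 on the log2 scale (permutation p = 0.00082). The 10 most abundant genes took 16.9% to 26.5% of a library in the 15 and 17.0% to 34% in the 33. Libraries also differed in whether long or short transcripts stood high, measured as log2 CPM per doubling of transcript length against the average library, with values of -0.328 to -0.0246 for the 15 and of -0.127 to 0.224 for the 33. The cause of this trend was not tested.

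At equal length, 43 of the 10513 genes measured separated the sets upwards and 41 separated them downwards, which is 0.409% and 0.39% of the genes. A separating gene is one whose log2 CPM, once the common line in length is taken out, does not overlap between the sets and whose log2 difference is at least 1, which is 2-fold. Without the requirement of no overlap, 843 genes (8.02%) were at least 2-fold higher in the 15 and 1026 (9.76%) were at least 2-fold lower. These percentages describe the contrast by which the 15 were chosen, and nothing is read from their size. The median log2 difference over all genes was 0.03, and the median size of a difference was 0.41. The fitted differences follow mean counts and so weigh larvae with high counts strongly. By them, higher genes outnumbered lower ones at 4-fold and 32-fold, unlike at 2-fold. Of the 10513 genes, 296 were at least 4-fold higher in the 15 and 181 were at least 4-fold lower. At 32-fold or more, 46 were higher and 7 were lower. Log2 differences ran from -8.07 to 10.16.

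Among the separating genes that were higher in the 15, the steepest was LOC105249386. It had 1.68 to 961 CPM in the 15 with a median of 138 CPM, against 0.0662 to 1.57 CPM in the 33 with a median of 0.593 CPM. Even larvae No. 68 and No. 6, at 1.68 and 1.99 CPM, stood above the highest of the 33, although by little. The log2 difference at equal length was 8.90 ± 0.55 (SE of the edgeR fit, given for its size only). LOC105254070 was far more abundant. Its level was 151 to 11850 CPM in the 15, with a median of 3649 CPM, against 2.89 to 126 CPM in the 33, with a median of 29.3 CPM, and the log2 difference was 7.17 ± 0.41. The lowest of the 15 was again No. 6 and the highest was No. 53. LOC105258377 had 58.2 to 755 CPM in the 15 and 3.99 to 56.9 CPM in the 33 (log2 difference 4.86 ± 0.28), so the gap between the sets was narrow in this gene.

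The rule named 9 further genes of this kind with at least 20 CPM on average in the 15. LOC105256545 averaged 163 ± 109 CPM in the 15 and 5.35 ± 4.82 CPM in the 33 (SD, n = 15 and 33), a log2 difference of 4.81. LOC105249723 averaged 252 ± 124 CPM in the 15 and 14.4 ± 14.2 CPM in the 33, a log2 difference of 4.05. LOC105259043 averaged 419 ± 345 CPM in the 15 and 35.6 ± 18.9 CPM in the 33, a log2 difference of 3.35. In these 3 genes the 15 varied by 3-fold or more among themselves, and in LOC105249723 and LOC105259043 the lowest of the 15 came under the highest of the 33 before the line in length was taken out. LOC105249563 was the most abundant of the remaining ones, with 1283 ± 869 CPM in the 15 and 176 ± 80.8 CPM in the 33 and a log2 difference of 2.71. LOC105248331, LOC105255378, LOC105251376, LOC105258537 and LOC105250087 had log2 differences of 7.11, 4.40, 3.51, 3.08 and 2.96. Before the line in length was taken out, the sets also overlapped in LOC105249563, LOC105248331, LOC105251376 and LOC105258537. With no correction for length, 21 of the 43 genes still separated the sets.

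By the fitted log2 difference, the separating genes that were lower in the 15 differed less. LOC105254524 had 0.697 to 20.1 CPM in the 15 with a median of 1.82 CPM, against 24.5 to 109 CPM in the 33 with a median of 63.5 CPM. The sets did not overlap, and the 8 larvae with the highest scores were all under 2 CPM. Its log2 difference was -3.39 ± 0.34. LOC105258627 had 5.95 to 19.03 CPM in the 15 and 21.1 to 126 CPM in the 33, and its log2 difference of -3.00 ± 0.19 came with little spread among the 15. LOC105254510 was the most abundant, with 47.99 to 2569 CPM in the 15 and 2805 to 8749 CPM in the 33. Its medians were 327 and 4933 CPM, and its log2 difference was -2.64 ± 0.37. For LOC105254524 and LOC105254510, the medians lay farther apart than the fitted difference. Larva No. 33 was the lowest in this gene and No. 15 the highest of the 15, only just under the 33.

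LOC112639110 and LOC105252688 were close to LOC105258627 in size, with log2 differences of -3.15 and -2.94. LOC112639110 averaged 5.197 ± 4.358 CPM in the 15 and 46.4 ± 19.0 CPM in the 33. LOC105252688 averaged 13 ± 4.98 CPM in the 15 and 107 ± 44.0 CPM in the 33. The other 7 of the 12 named for their size were LOC105254497, LOC105249338, LOC105251492, LOC105248086, LOC105255647, LOC105258222 and LOC105249853, with log2 differences of -2.30 to -1.81. They were moderately expressed, at 5.985 to 17.9 CPM on average in the 15 and 27.3 to 70.2 CPM in the 33. In LOC105249338, LOC105251492 and LOC105249853 the sets overlapped in CPM before the line in length was taken out. With no correction for length, 30 of the 41 genes still separated the sets.

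**Figure D2:**
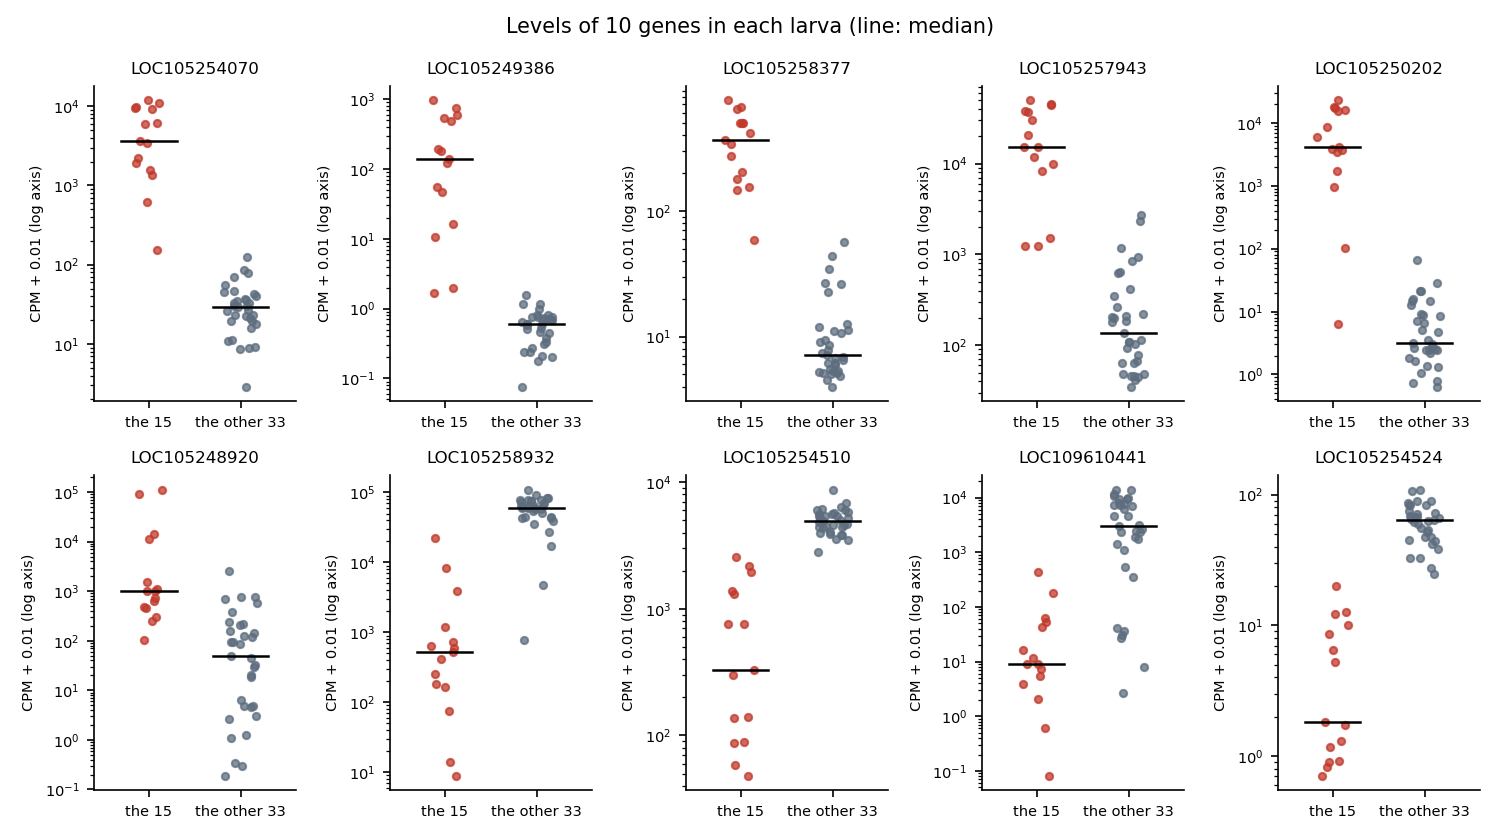
Level of 10 genes in each larva, in TMM-scaled CPM plus 0.01 on log axes that differ between panels, with the 15 larvae on the left in red, the other 33 on the right in grey, and a line at each median. LOC105254070, LOC105249386, LOC105258377, LOC105254510 and LOC105254524 do not overlap between the sets, and the other 5 do, LOC105248920 with 104 to 112200 CPM in the 15 and 0.178 to 2528 CPM in the 33.

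The widest differences of all fell just short of separating the sets, because of larva No. 6. LOC105251395 had 1.07 to 6704 CPM in the 15, with a median of 1810 CPM, against 0.0841 to 8.62 CPM in the 33, with a median of 0.669 CPM, a log2 difference of 10.16 ± 0.67. LOC105249240 had 0.757 to 3123 CPM in the 15 and 0.0421 to 6.465 CPM in the 33, a log2 difference of 9.96 ± 0.63. LOC105250202 had 6.41 to 22740 CPM in the 15 and 0.631 to 66.0 CPM in the 33, a log2 difference of 9.87 ± 0.69. In each of them No. 6 was the lowest of the 15 and lay within the range of the 33, and No. 68 was the next lowest, at 27.5, 6.81 and 104 CPM. These 3 genes and the other genes of this paragraph were chosen after their values were seen. The long non-coding RNA gene LOC105256728 averaged 329 ± 327 CPM in the 15 and 0.606 ± 0.399 CPM in the 33, a log2 difference of 8.99. LOC105255502, with 149 ± 155 CPM in the 15 and 0.378 ± 0.224 CPM in the 33, had a log2 difference of 8.57, and for both genes 14 of the 15 lay above all of the 33. LOC105255479, which stands next to LOC105255502 in the gene table, had a log2 difference of 7.44 and lay above all of the 33 in 12 of the 15. LOC105255690 and LOC105252131 averaged 1054 ± 842 and 1358 ± 1093 CPM in the 15, against 9.72 ± 7.91 and 9.06 ± 17.1 CPM in the 33.

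Levels of different genes are compared here in TPM, a level scaled for transcript length as well as library size. LOC105257943 had the highest mean of any gene in the 15, at 56850 ± 38190 TPM, against 1407 ± 2198 TPM in the 33, where it ranked 126. In the 15 its CPM ran from 1237 in No. 6 to 49780 in No. 31, against 35.1 to 2749 CPM in the 33, so the sets overlapped, with No. 6, No. 15 and No. 9 as the lowest of the 15. LOC105254302 ranked 3 in the 15 at 18430 TPM and 371 in the 33 at 304.2 TPM. LOC105254301, its neighbour in the gene table, ranked 7 in the 15 at 10830 TPM and 310 in the 33 at 369.5 TPM. Both neighbours lay above all of the 33 in 14 of the 15 larvae. LOC105256743 ranked 10 in the 15 at 8817 ± 3608 TPM and 91 in the 33 at 2094 ± 1167 TPM.

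Of the 15 genes of highest mean CPM over all larvae, 3 were at least 2-fold higher in the 15, 3 were at least 2-fold lower and the other 9 differed by -0.22 to 0.99 on the log2 scale. LOC105256665 averaged 48060 ± 21190 CPM in the 15 and 15510 ± 7937 CPM in the 33, a log2 difference of 1.52. At equal length, 13 of the 15 lay above all of the 33. In CPM the overlap was wider, with the lowest of the 15 at 15080 and the highest of the 33 at 34560. LOC105251526 averaged 21900 ± 12600 CPM in the 15 and 9236 ± 3161 CPM in the 33, a log2 difference of 1.21. At equal length, 6 of the 15 lay above all of the 33. The third of the higher genes was LOC105257943.

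In the 33 the order at the top was another one. LOC105258901 ranked 1 there at 38400 TPM, and stood at 1839 TPM in the 15. LOC105258932 ranked 3 in the 33 at 31040 TPM and 137 in the 15 at 1440 TPM. LOC109610441 ranked 5 in the 33 at 14940 ± 13860 TPM and 735 in the 15 at 135.7 ± 292.5 TPM. LOC105250772 held rank 2 in both sets, at 22200 TPM in the 15 and 33900 TPM in the 33. The 2 pseudogenes among the most abundant, LOC109610429 and LOC109610426, were within 2-fold between the sets, at 15590 and 10220 TPM in the 15 against 13130 and 9957 TPM in the 33. Both values are uncertain, since reads of a pseudogene and of its parent gene may be hard to tell apart.

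A set of 3 neighbouring genes took a large part of a library in the 33 and little in most of the 15. LOC105258900, LOC105258901 and LOC105258932 together held 0.00209% of the scaled counts in larva No. 33 and 4.81% in larva No. 6, the lowest and the highest of the 15, with a median of 0.116%. In the 33 they held 0.169% in No. 51 to 23.6% in No. 43, with a median of 13.2%. The sets overlapped, and 11 of the 15 lay below all of the 33 in each of these genes. Their log2 differences were -4.66 ± 0.71, -4.62 ± 0.72 and -4.66 ± 0.72. The genes kept similar proportions while their sum varied widely. The level of LOC105258900 was 0.567 to 0.952 times that of LOC105258932 in the 15, with a median of 0.638, and 0.577 to 0.690 times in the 33, with a median of 0.615. LOC105258902, which stands next to LOC105258932 in the gene table and outside the 3, differed in the other direction. It averaged 876 ± 336 CPM in the 15 and 245 ± 139 CPM in the 33, a log2 difference of 1.72, and was a separating gene.

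The same overlap marked other abundant genes that were lower in the 15. LOC109610441 had 0.0714 to 438 CPM in the 15 with a median of 8.95 CPM, and 2.69 to 14050 CPM in the 33 with a median of 2997 CPM. Its log2 difference was -6.15 ± 1.04, but 6 of the 33 had less than 50 CPM, and 6 of the 15 lay below all of the 33. LOC105251615 and its neighbour LOC112639556 had log2 differences of -4.53 and -5.16. LOC105251615 averaged 171 ± 452 CPM in the 15 and 3166 ± 1256 CPM in the 33, and 13 of the 15 lay below all of the 33. Larva No. 6, at 1733 CPM, was the highest of the 15 in LOC105251615. These genes were chosen after their values were seen.

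**Figure D3:**
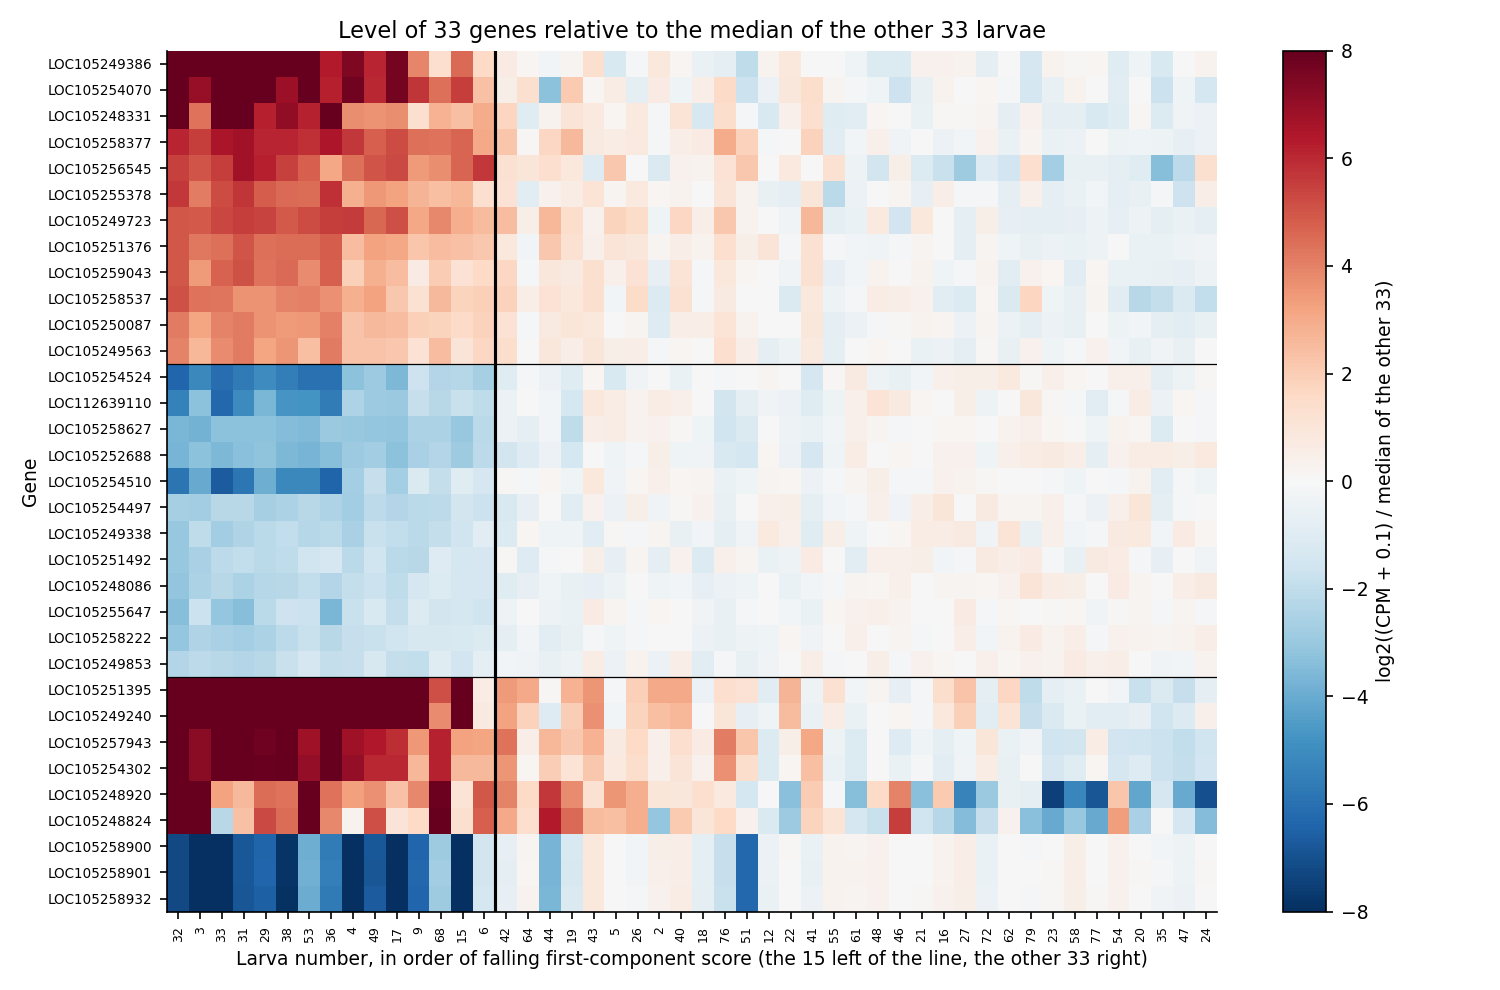
Level of 33 genes (rows) in each larva (columns, by falling first-component score), as log2 of CPM plus 0.1 relative to the median of the other 33 larvae, with colours capped at -8 and 8. The 15 larvae stand left of the vertical line and the other 33 right of it, and the blocks from top to bottom hold 12 separating genes that were higher, 12 that were lower and 9 further genes. Colours fade towards larvae No. 68, No. 15 and No. 6, and LOC105248920 and LOC105248824 are strongest in No. 32, No. 3, No. 53 and No. 68.

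How many of the genes set a larva apart differed widely within the 15. Of the 843 genes at least 2-fold higher, larva No. 32 lay above all of the 33 in 748 genes (88.7%), No. 3 in 677 (80.3%) and No. 53 in 650 (77.1%). No. 6 did so in 277 (32.9%) and No. 68 in 251 (29.8%). Of the 1026 genes at least 2-fold lower, No. 32 lay below all of the 33 in 821 (80.0%) and No. 68 in 127 (12.4%). The order was not the same in both directions. No. 53 was the third highest for the higher genes but reached 34.1% of the lower genes, and No. 15 reached 59.9% and 23.7%, while No. 17 and No. 9 reached a larger share of the lower genes (68.7% and 63.6%) than of the higher ones (59.0% and 52.3%). These shares describe genes picked for their difference, at equal length, and are not independent of the scores.

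**Figure D4:**
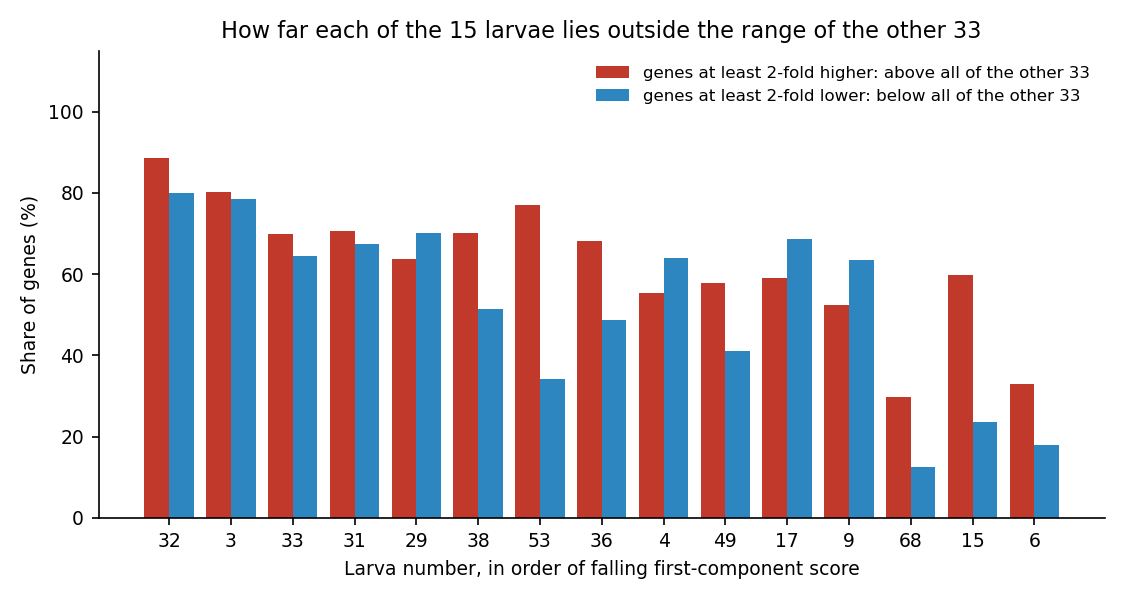
Share of genes (vertical axis, %) in which each of the 15 larvae lies outside the whole range of the other 33 at equal length, with larvae in order of falling first-component score. Red bars are the 843 genes at least 2-fold higher and blue bars the 1026 genes at least 2-fold lower, and No. 68 and No. 6 have the shortest red bars, at 29.8% and 32.9%.

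Seen gene by gene, the 843 higher genes lay above all of the 33 in a median of 10 of the 15 larvae and the 1026 lower genes lay below all of the 33 in a median of 8. For 214 of the higher and 302 of the lower genes this held in 5 larvae or fewer. Of the 296 genes at least 4-fold higher, 26 exceeded the 33 in all 15 larvae and 72 did so in exactly 14. Larva No. 6 was the exception for 55 of these 72 genes and No. 68 for 11. Leaving out No. 6 gave 128 separating genes that were higher and 63 that were lower, and leaving out No. 68 gave 80 and 72. Leaving out any other larva gave 43 to 52 and 41 to 53.

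A smaller group of genes rose above all of the 33 in only a few larvae of the 15, counted at equal length. The genes taken were at least 4-fold higher with at least 20 CPM on average in the 15, bounds that a few high larvae can meet. Of these, 89 exceeded all of the 33 other larvae in 12 larvae or more. Another 33 genes exceeded all of the 33 other larvae in 5 larvae or fewer, a cut set after the values were seen. Larva No. 3 did so in 31 of them, No. 32 in 30, No. 53 in 28, No. 6 in 18 and No. 68 in 11, and each of the remaining 10 larvae did so in at most 4. All of No. 3, No. 32 and No. 53 exceeded the 33 in 27 of the genes. The most abundant was LOC105248920, at 112200 CPM in No. 32, 89370 CPM in No. 3, 14390 CPM in No. 53 and 11370 CPM in No. 68, with 104 to 1554 CPM in the other 11 of the 15. Of these 11, No. 9 lay above all of the 33 at equal length but not in CPM. In the 33, LOC105248920 ran from 0.178 to 2528 CPM with a median of 49.9 CPM, and larva No. 44 was the highest. LOC105248824 followed the same larvae, with 10410 CPM in No. 32, 5338 CPM in No. 3, 1676 CPM in No. 53 and 1024 CPM in No. 68, against 0 to 132 CPM in the 33, where No. 44 again had the most. LOC105254728 averaged 573 ± 1314 CPM in the 15, with a median of 13.8 CPM, and 2.90 ± 5.58 CPM in the 33, with a median of 0.607 CPM. The typical larva of the 15 was thus also higher in this gene. The 3 larvae that lead in these genes were 6559.34 to 6892.55 µm long. Larvae No. 33, No. 49 and No. 29 of the 15, at 6613.4, 6797.79 and 6827.21 µm, were within the same lengths and did not lead. Conversely, 114 of the 296 genes exceeded all of the 33 in each of the 10 larvae of the 15 other than No. 3, No. 32, No. 53, No. 6 and No. 68.

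Some neighbouring genes differed in the same direction. Runs were counted along the measured genes of the gene table, with unmeasured genes skipped, so members need not be adjacent in the full table. Counted so, separating genes stood side by side in pairs at most. One pair was LOC105249561 and LOC105249559, at 19.0 ± 16.3 and 434 ± 123 CPM in the 15 against 1.21 ± 0.811 and 80.9 ± 55.4 CPM in the 33. The other was LOC105256981 and LOC105257343, at 5.79 ± 3.17 and 2.61 ± 1.43 CPM in the 15 against 0.623 ± 0.334 and 0.422 ± 0.199 CPM in the 33. With the looser bound of 2-fold, chosen after the values were seen, the higher genes formed 31 runs of at least 3 neighbours, which held 117 of the 843 genes, and the lower genes formed 19 such runs with 62 of the 1026 genes. The longest run of higher genes held 8, from LOC105250338 to LOC105259137, with log2 differences of 2.42 to 4.67. Its most abundant member was LOC105250435, at 5618 ± 3632 CPM in the 15 and 423.7 ± 333.3 CPM in the 33. Every member lay above all of the 33 in at least 13 of the 15. LOC105250338, LOC105250323, LOC112637146 and LOC105259137 were rare, averaging 0.772 to 4.265 CPM in the 15 and 0.0737 to 0.4435 CPM in the 33. A run of 6 higher genes held LOC105249564, LOC105249563, LOC105249562, LOC105249561, LOC105249559 and LOC105249560, with log2 differences of 1.04 to 3.83. The longest run of lower genes, also of 6, held LOC105254510 and LOC105254524, and its other 4 members averaged under 2 CPM in both sets. Reads shared between neighbours that resemble each other were not analysed here.

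By class, 44 of 444 long non-coding RNA genes (9.91%) were at least 2-fold higher in the 15 and 23 (5.18%) at least 2-fold lower, with a median log2 difference of 0.19. Of 9909 protein-coding genes, 777 (7.84%) were higher and 995 (10%) lower, with a median of 0.02. Of 121 pseudogenes, 20 (16.5%) were higher and 8 (6.61%) lower, with a median of 0.29. The share of lower genes was larger among long transcripts, with no test made. In the 20% of genes with the shortest transcripts, 107 to 1100 bases, 10.5% were at least 2-fold higher and 3.8% at least 2-fold lower, with a median log2 difference of 0.35. In the 20% with the longest, 3443 to 49958 bases, 4.04% were higher and 16.8% lower, with a median of -0.30. This ran along with the trend of each library with transcript length given above, and its cause was not tested. With that trend removed from every library, 738 genes were at least 2-fold higher and 884 at least 2-fold lower, and 41 genes separated the sets in each direction, with 25 of the 43 higher and 36 of the 41 lower genes kept.

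**Figure D5:**
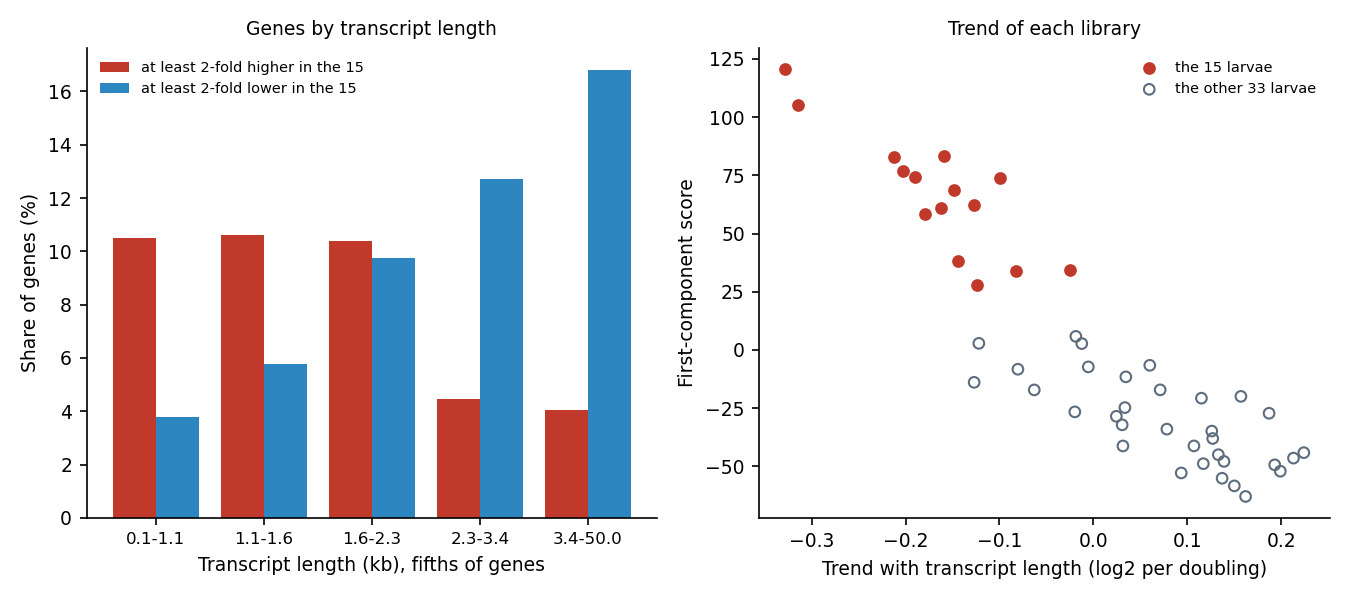
Left, share of genes (%) at least 2-fold higher (red) or lower (blue) in the 15, by transcript length (kb, 5 classes of equal size), with the lower genes at 3.8% in the shortest and 16.8% in the longest class. Right, first-component score of each library against its trend with transcript length (log2 per doubling), with filled red points for the 15 (-0.328 to -0.0246) and open grey points for the other 33 (-0.127 to 0.224).

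The genes with a written symbol in the annotation were 4, and none of them separated the sets. Titin had 23.4 to 58.6 CPM in the 15 with a median of 32.5 CPM, against 10.3 to 38.4 CPM in the 33 with a median of 18.9 CPM. Its log2 difference was 0.80 ± 0.11, and 9 of the 15 lay above all of the 33 at equal length. Traa averaged 188 ± 54.5 CPM in the 15 and 133 ± 52.4 CPM in the 33, a log2 difference of 0.49. Trab and Makorin-1 had log2 differences of -0.17 and -0.23.

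Transcript use within genes was compared as the share of a gene's estimated reads held by 1 transcript, with no correction for length. It covered the 2493 genes with at least 2 transcripts and at least 20 CPM on average in both sets. The largest difference within a gene had a median of 5.59 percentage points, and it was above 10 points in 759 genes and above 20 points in 201. In LOC105256481, XM_011266411.3 held 16.4% in the 15 (5.98% to 48.5%) and 71.0% in the 33 (46.6% to 86.2%). In LOC105249497, an abundant gene with a total of 1831 ± 335 CPM in the 15 and 1603 ± 145 CPM in the 33, XM_011255014.3 held 70.2% ± 15.3 in the 15 and 22.1% ± 20.0 in the 33 (SD, n = 15 and 33). In LOC105259553, XM_025410424.1 held 61.8% ± 21.8 in the 15 and 18.8% ± 15.8 in the 33. The ranges of the sets overlapped in each of these. In LOC105259426, XM_011271341.3 held 67.2% in the 15 and 22.0% in the 33, and in LOC105258274, XM_011269435.3 held 9.45% in the 15 and 53.9% in the 33. The shares of 1 gene only, LOC105253785, did not overlap, where XM_025414014.1 held 1.40% to 6.18% in the 15 and 6.26% to 11.8% in the 33.

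The last comparison set the course of each gene along larval length within the 15 beside that within the 33. The slopes come from the same expression values by which the 15 were chosen, and the shortest of the 15, No. 15 and No. 9, are among those with low scores, at 33.83 and 38.27. The slopes are therefore given as a description, and the edgeR quasi-likelihood fit of the product of set and length is used to rank genes. Its threshold, a Benjamini-Hochberg adjusted p under 0.05, was passed by 4 of the 10513 genes (0.038%), with 1514 at an unadjusted p under 0.05, and nothing is read from these counts. All 4 were nearly level in the 33 and had a positive slope in the 15. LOC105249321 had 6.55 and 6.77 CPM in the shortest of the 15, No. 15 and No. 9, and 12.0 to 22.8 CPM in the 11 longest, against 5.09 to 10.3 CPM in the 33. Its slope was 0.65 log2 per mm in the 15 and -0.05 in the 33, a difference of 0.70 ± 0.12 (SE). LOC105254049 had 20.05 to 62.4 CPM in the 15 and 20.7 to 36.7 CPM in the 33, and its slopes differed by 0.57 ± 0.10. LOC105250691 and LOC105252939 differed in slope by 0.34 and 0.32, with ranges of 109.6 to 232 and 14.2 to 27.1 CPM in the 15 against 127.0 to 174 and 13.5 to 21.9 CPM in the 33. LOC105259023, the next gene in this ranking, had a difference of 0.22. Without No. 9 and No. 15, 1 gene passed the threshold and it was none of the 4.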

How the data were processed

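Whole-body polyA RNA of 48 female larvae was sequenced in pairs of reads after a strand-specific preparation, as the labels' protocols state. Tools listed by the submitters' processing notes are Salmon, DESeq2, DESeq, Trim Galore 0.6.7 and bcl2fastq 2.20. Which build, Salmon version and strand setting were used is not given in the sources. The deposited tables hold estimated counts and TPM per transcript, per the file headers, and the authors' deposited table of the series holds a normalized signal per transcript. That signal served as an alternative only, with 0 columns from samples outside the series.

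Of 26315 transcripts, 25811 were matched by accession to the RefSeq annotation of Cflo_v7.5, 397 by symbol and 106 by tRNA name, giving 13878 genes. The 1 transcript left took at most 0.00124% of a library and was left out. Estimated counts were summed per gene and rounded, filtered with filterByExpr and scaled by TMM in edgeR 4.0.16 (R 4.3.3). CPM values carry these factors. Log2 differences are those of a quasi-likelihood fit with length in mm as covariate, and their SE is the difference divided by the square root of F. Length-adjusted log2 CPM (prior count 2) has a line in length, common to both sets, taken out. Tests were made for length, spread and depth (permutation, scipy 1.17.1). Slopes were planned as a test in edgeR, but use the expression that chose the 15, and serve to rank genes only. P-values measure the spread between these larvae of 1 colony. No pair of libraries held identical values. Depth ran between 6608775 and 63171625 reads, so values of the rarest genes are the least precise.

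The members, lists and tests were chosen with earlier results of these data known. Named genes are the 12 separating genes of largest difference in each direction with at least 20 CPM, the 15 of highest mean CPM, neighbouring separating genes, the 5 of largest difference in transcript share, the 5 of smallest p for slopes and genes with a written symbol. Lists by product (such as storage proteins, cuticle, silk and hormone response) could not be matched, because the annotation used here gives no products; Titin alone matched. No sequences were used here. The scripts were tested on simulated data. Alternatives were upper-quartile and RLE factors, no filter, single transcripts, the authors' table, no or curved length term, nearest-length pairs, removal of the transcript-length trend, larvae left out, limma 3.58.1 and DESeq2 1.42.0.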

Additional observations from a re-analysis of the deposited data

Results flagged for a closer look

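The 1 transcript that names no gene entered no comparison. It had 63 to 447 estimated reads in the 15 larvae and 4 to 109 in the 33, with the lowest value in No. 43, the shallowest library. Scaled by library size, this came to 0.000146% to 0.00124% of the reads for the 15 and 6.05e-05% to 0.000264% for the 33, and the sets overlapped.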

How the results depend on the processing

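The number of genes that separate the 15 larvae from the 33, 43 higher and 41 lower, depends on the rule and on single larvae. It was 18 and 21 with a spline of length, 328 and 691 when each of the 15 was set against the larva of the 33 nearest in length, 98 and 62 in larvae of at least 5.8 mm (13 of the 15 and 12 of the 33), and 145 and 65 without larvae No. 6 and No. 42. Leaving out each larva in turn gave 43 to 128 higher and 41 to 72 lower genes, with No. 6 (128 and 63) and No. 68 (80 and 72) as the only larvae that moved a count by over 1.5 times. For these counts, the settings with larvae left out, other than the pair of No. 42 and No. 43, and that of 5.8 mm were chosen after the data were seen. Nearest-length pairs follow a looser rule, since each of the 15 has to differ in 1 direction from its own pair only, not from all of the 33. These pairs also reuse larvae of the 33, No. 46 for 6 of the 15. Genes at least 2-fold higher numbered 1271 with no filter, and single transcripts 1979 higher and 2974 lower, where more features were counted. Under the other settings the counts stayed within 1.5 times.

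Of the log2 differences of named genes under alternatives, 811 moved by less than the spread between larvae and 36 moved by more. That spread is wide for some genes, and their sizes depend on the setting. LOC105248824 ran from 1.89 to 6.91, LOC105254728 from 2.57 to 7.64 and LOC105258932 from -6.75 to -3.59. Others moved little, such as LOC105258627, from -3.10 to -2.61. Signs were more stable than sizes. No log2 difference of at least 1 in size changed sign, and 4 of the smaller ones did. These were LOC112638015 (-0.10) and LOC105259553 (-0.04) in larvae of at least 5.8 mm, and LOC105250691 (-0.02) and LOC105259023 (-0.01) with the transcript-length trend removed. The difference in log2 depth, the 15 minus the 33, was -0.2232 without larvae No. 42 and No. 43 and -0.1541 at the median, both past the threshold, unlike the mean. Genes past the threshold for a difference in slope, which is a ranking on the values that chose the 15, numbered 1 with upper-quartile factors, 29 with no filter, 2 without larvae No. 42 and No. 43, 1 without larvae No. 9 and No. 15, 48 in limma-voom and 159 in DESeq2, against 4. The cause was not tested.

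The 15 were chosen by expression, so no difference in a gene's level is tested. Of the 15, 7 lie in a stretch of lengths that holds none of the 33. The median log2 difference over genes was 0.05 with RLE factors and 0.04 with upper-quartile factors, against 0.03.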
